A study of Mus musculus with 2 samples.

Results

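Complex I of the respiratory chain (NADH:ubiquinone oxidoreductase) is described here through the mouse genes whose symbols begin with Nduf, as measured in the heart of E13.5 embryos. Members were all protein-coding genes of the GENCODE mouse annotation with such a symbol whose identifier, without its version, occurred in both gene tables. The rule gave 46 genes of 21474 protein-coding genes, and no Nduf protein-coding symbol of the annotation was left without a row. They were sorted by known role into 7 core subunits, 29 accessory subunits, 8 assembly genes (Ndufaf) and a pair, Ndufa4 and Ndufa4l2, kept apart because the NDUFA4 protein is now assigned to complex IV. The samples formed 1 group of 2 libraries of total RNA, replicates 2 and 1, from B6NCrl mouse hearts at embryonic day 13.5, untreated as far as the labels say. Each library was made from 10 ng of RNA longer than 200 nt with spike-in RNA added, male and female embryos were pooled, and both replicates stand under 1 donor entry. With 2 libraries and 1 group there is no comparison between conditions and no test, so levels are given per library with the SD over 2 values, and that SD may hold technical as well as biological spread.

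Complex I takes electrons from NADH, passes them along flavin and iron-sulfur centres to ubiquinone, and pumps protons across the inner mitochondrial membrane. Its core subunits, conserved from bacteria, do the chemistry and the pumping. Those in the matrix arm are nuclear genes, while the pumping subunits of the membrane arm are encoded in mitochondrial DNA. Accessory subunits surround and stabilise the core, and assembly factors help to build modules of the complex but are not part of the finished enzyme. Heart muscle relies on this chain for most of its ATP after birth.

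The libraries held 36060765 expected counts in replicate 2 and 36733400 in replicate 1, and the members between 332 and 15551 counts each in replicate 2 and between 245 and 14709 in replicate 1. Spike-ins made up 5.04% of the TPM sum for replicate 2 but 11.1% for replicate 1. Globin genes held 9.03% of it in replicate 2, against 13.6% in replicate 1. TPM is a share of the sum over all features, spike-ins and globins included. Defining cardiomyocyte markers were high in both libraries: the 6 listed genes had a median of 4865 TPM in replicate 2 and 3939 TPM in replicate 1. Endothelial markers had medians of 26.7 and 27.0 TPM in replicates 2 and 1. Liver markers, such as Afp, summed to 469 TPM in replicate 2 and 93.3 TPM in replicate 1. In a bulk sample, fewer cells of a type and less RNA per cell cannot be told apart.

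The letters near the gene starts were read first. Promoters of RefSeq on GRCm38.p6, each 250 bases before to 50 bases after the annotated start, were found for 40 members; those with no entry included Ndufa2, Ndufa4l2, Ndufaf6, Ndufb9 and Ndufs1. They were searched on both strands for the letters of factors known from nuclear genes of mitochondrial proteins: NRF1 (GCGCATGCG), YY1 (AAGATGGCG), ETS factors such as GABPA (CCGGAAGT), estrogen-related receptors (CAAGGTCA) and SP1 (GGGCGGGG). The YY1 letters occurred in 6 of the 40 members, or 15%, against 2.27% of 16317 protein-coding genes in the table and 3.65% of the 9673 of these at 1 TPM or more in both libraries. They are shown for all 6 because they lie at one place, between 10 and 35 bases after the start and always on the gene's own strand. Each stretch of 30 bases is written 5′ to 3′ in the gene's direction with the searched letters in capitals.
Ndufa9: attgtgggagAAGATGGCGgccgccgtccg
Ndufaf8: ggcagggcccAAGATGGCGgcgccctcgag
Ndufc1: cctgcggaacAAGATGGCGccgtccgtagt
Ndufs4: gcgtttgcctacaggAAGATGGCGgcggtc
Ndufs6: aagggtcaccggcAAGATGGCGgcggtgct
Ndufs7: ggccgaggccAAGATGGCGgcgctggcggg
These lie at chr6:126849096-126849125 (minus strand), chr11:120098934-120098963 (plus), chr3:51408914-51408943 (minus), chr13:114388045-114388074 (minus), chr13:73328433-73328462 (minus) and chr10:80249463-80249492 (plus), in the order printed. In 5 of the 6, all but Ndufaf8, the ATG inside the searched letters is an annotated start codon of the gene, so the letters span the last bases of the 5′ leader and the first codons. This position was looked up after the matches were seen. Neither the place nor the start codon was looked up in other genes with these letters. Whether they are particular to Nduf genes was not tested. The 6 genes do not share a level: they ran from Ndufaf8 at 70.3 TPM and Ndufs4 at 126 TPM to Ndufc1 at 1123 TPM.

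The NRF1 letters, which read nearly the same on both strands, occurred in 4 of the 40 members, or 10%, against 2.76% of protein-coding genes and 4.22% of those at 1 TPM or more. They are shown because no annotated start codon lies in them and their positions are spread from well before the start to just after it. Here too, other genes with the letters were not looked up.
Ndufa11: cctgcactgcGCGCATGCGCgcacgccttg
Ndufa8: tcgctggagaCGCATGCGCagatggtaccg
Ndufaf4: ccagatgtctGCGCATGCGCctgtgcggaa
Ndufaf5: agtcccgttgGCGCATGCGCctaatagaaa
These lie at chr17:56717692-56717721 (plus), chr2:36049328-36049357 (minus), chr4:24897960-24897989 (plus) and chr2:140170652-140170681 (plus). Of these genes 2 are assembly genes, and the levels ran from 27.8 TPM for Ndufaf5 to 302 TPM for Ndufa8. Of the other letters, those of SP1 occurred in 9 members (22.5%, against 27.4% of protein-coding genes and 38.1% of those at 1 TPM or more). Those of ETS factors occurred in Ndufs3 alone (2.5%, against 5.99% and 9.21% of the same sets). Those of estrogen-related receptors occurred in Ndufs5 alone (2.5%, against 1.47% and 1.27%). Any of the searched letters occurred in 19 of the 40 (47.5%), against 35.4% of protein-coding genes and 49.4% of those at 1 TPM or more, so the members are near the share of expressed genes. A match describes letters and not binding.

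Subunit genes were among the most abundant mRNAs of the embryonic heart and assembly genes stood well below them. The median over the 36 core and accessory genes was 442 TPM in replicate 2 and 365 TPM in replicate 1 (mean 403 ± 53.9, SD, n = 2). The median over the 8 assembly genes was 45.0 TPM in replicate 2 and 39.9 TPM in replicate 1 (42.3 ± 3.62, SD, n = 2), so the ratio of the medians was 9.53. All protein-coding genes had a median of 3.07 TPM, and the 12309 of them at 1 TPM or more in both libraries 15.1 TPM. At 100 TPM or more in both libraries stood 35 of 36 subunits and none of the 8 assembly genes, against 1167 of 21474 protein-coding genes. The lowest core gene was 3.32-fold above the highest assembly gene, so those classes did not overlap, whereas 1 accessory gene, Ndufb4, lay among the assembly genes. Together the 46 genes held 1.86% of TPM in replicate 2 and 1.56% in replicate 1.

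**Figure D1:**
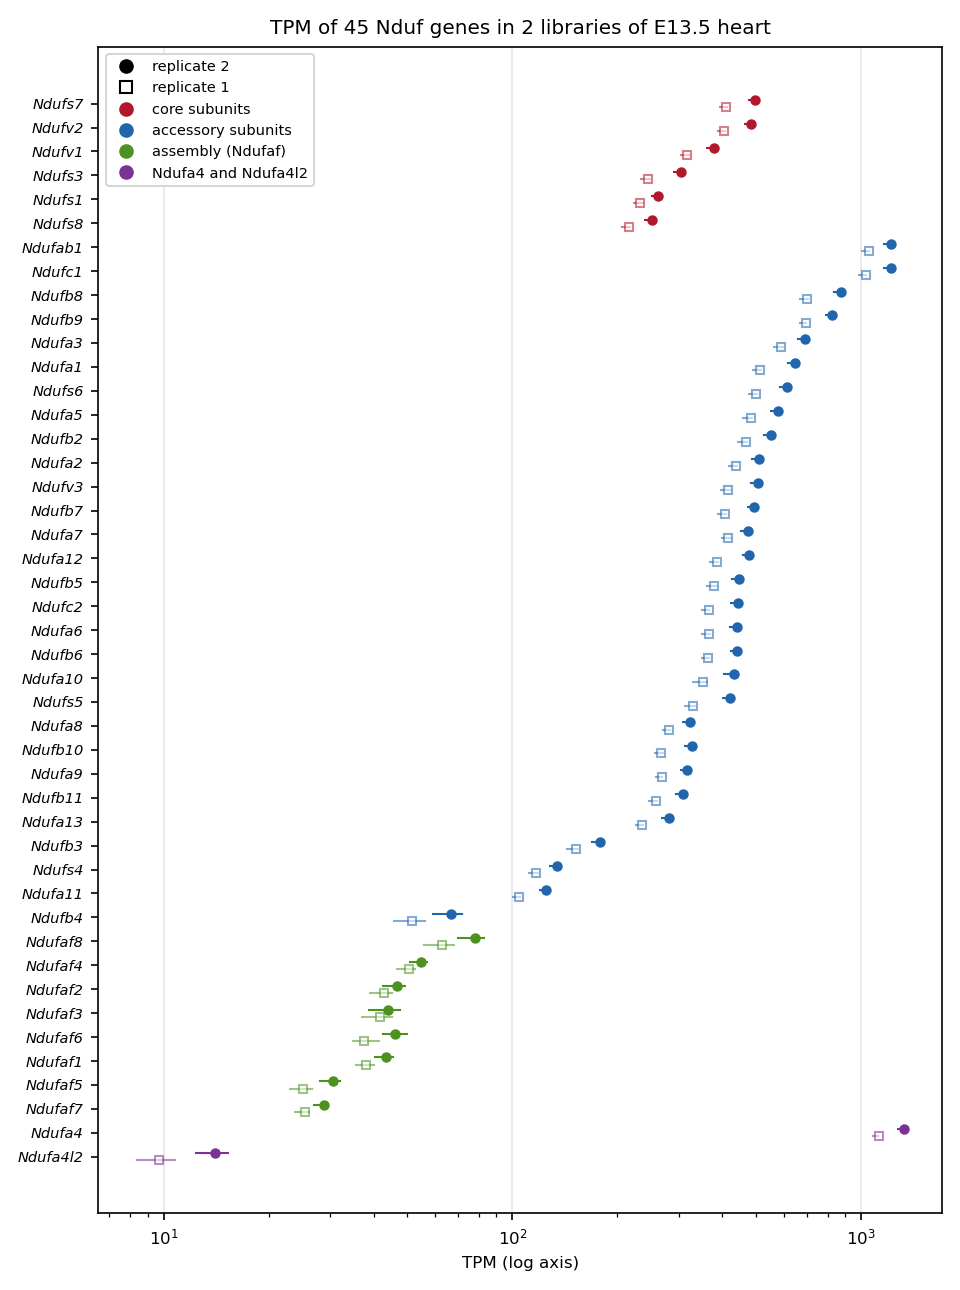
TPM (log axis) of 45 Nduf genes in replicate 2 (filled circle) and replicate 1 (open square), grouped by class, with lines for the deposited credibility bounds. Core genes lie between 216 and 496 TPM, assembly genes between 25.1 and 77.9 TPM, and Ndufb4 stands apart from the other accessory genes.

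The 7 core genes differed from each other by less than 2-fold (1.94-fold from lowest to highest). Ndufs7, which carries the last iron-sulfur centre before ubiquinone, had 496 TPM in replicate 2 and 410 TPM in replicate 1. Ndufv2, an iron-sulfur subunit of the NADH-binding module, had 482 TPM in replicate 2 and 405 TPM in replicate 1. These 2 led the order in both libraries, and their deposited credibility bounds overlapped. The bounds belong to the posterior estimate, and a deposited TPM can lie outside them. Ndufv1, which holds the flavin and binds NADH, had 378 TPM in replicate 2 and 316 TPM in replicate 1. It lay between the leading pair and the genes that follow in both libraries. Ndufs3, a subunit of the arm that carries electrons to ubiquinone, had 303 TPM in replicate 2 and 245 TPM in replicate 1. Ndufs1, the largest subunit, with several iron-sulfur centres, had 261 TPM in replicate 2 and 232 TPM in replicate 1. Ndufs8, a ferredoxin-like subunit, had 251 TPM in replicate 2 and 216 TPM in replicate 1. These 3 form the lower end, and neither neighbouring pair among them had bounds that were apart in both libraries. Of the 6 neighbouring pairs in the core order, 2 had bounds that were apart in both libraries, Ndufv1 over Ndufs3 among them. The NADH-binding core genes (3, median 347 TPM) and the ubiquinone-arm core genes (4, median 324 TPM) covered nearly the same range.

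Accessory genes spread more widely, from 59.1 to 1133 TPM. The highest by the mean of 2 libraries was Ndufab1, the mitochondrial acyl carrier protein, which the complex holds in a pair of copies and which also serves fatty acid and lipoate synthesis, at 1216 TPM in replicate 2 and 1050 in replicate 1. Ndufc1, a small membrane-arm subunit, had 1217 TPM in replicate 2 and 1028 TPM in replicate 1, and its order against Ndufab1 is not settled. Ndufb8 had 875 TPM in replicate 2 and 698 TPM in replicate 1, and Ndufb9, the other distal membrane-arm subunit near the top, 825 TPM in replicate 2 and 692 TPM in replicate 1. Those 4 genes lie above every core gene in both libraries. At the other end, Ndufb3 had 178 TPM in replicate 2 and 152 TPM in replicate 1. Ndufs4, a subunit of the NADH-module interface whose loss causes Leigh-like disease in mice, had 134 TPM in replicate 2 and 117 TPM in replicate 1. Ndufa11, a membrane-arm subunit, had 125 TPM in replicate 2 and 105 TPM in replicate 1. Ndufb4, a distal membrane-arm subunit, had 66.5 TPM in replicate 2 and 51.7 TPM in replicate 1 and was the only subunit gene under 100 TPM. The remaining 21 accessory genes lay between those extremes.

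By place in the enzyme, medians of accessory genes were close: 461 TPM for the 5 of the NADH module, 424 TPM for the 4 of the ubiquinone arm, 392 TPM for the 9 of the proximal membrane arm and 407 TPM for the 10 of the distal membrane arm. Thus 30 of 36 subunit genes stood within 2-fold of the subunit median, 2 above (Ndufab1 and Ndufc1) and 4 below (Ndufb3, Ndufs4, Ndufa11 and Ndufb4). The order of members was nearly the same in both libraries (Spearman rho 0.997 over 46 genes, a description within this tissue). Neighbours in that order could seldom be told apart: bounds were apart in both libraries for 13 of 45 neighbouring pairs.

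Level moved with effective length. For a gene with several transcripts this is a mean weighted by their shares, so it is not the size of the gene. Over the 36 subunits, effective length (the length over which a fragment can start) and mean TPM had a Spearman rho of -0.774, over all 46 members -0.716, and over the 12309 protein-coding genes at 1 TPM or more -0.350; genes share libraries and annotation, and are not independent replicates. Ndufc1, with the shortest effective length of the subunit genes, 244 bases, was near the top. Ndufa11, with the longest, 2562 bases, was near the bottom. Ndufc1 also has a coding transcript of 1249 bases, which held 0.5% of its TPM in both libraries. Ndufa11 had 8788 counts in replicate 2 and 7854 in replicate 1, which are more than those of Ndufc1 (8163 in replicate 2 and 7333 in replicate 1), so the order by counts is the reverse of that by TPM. TPM divides counts by this length, and the part of that step in the relation was not tested.

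**Figure D2:**
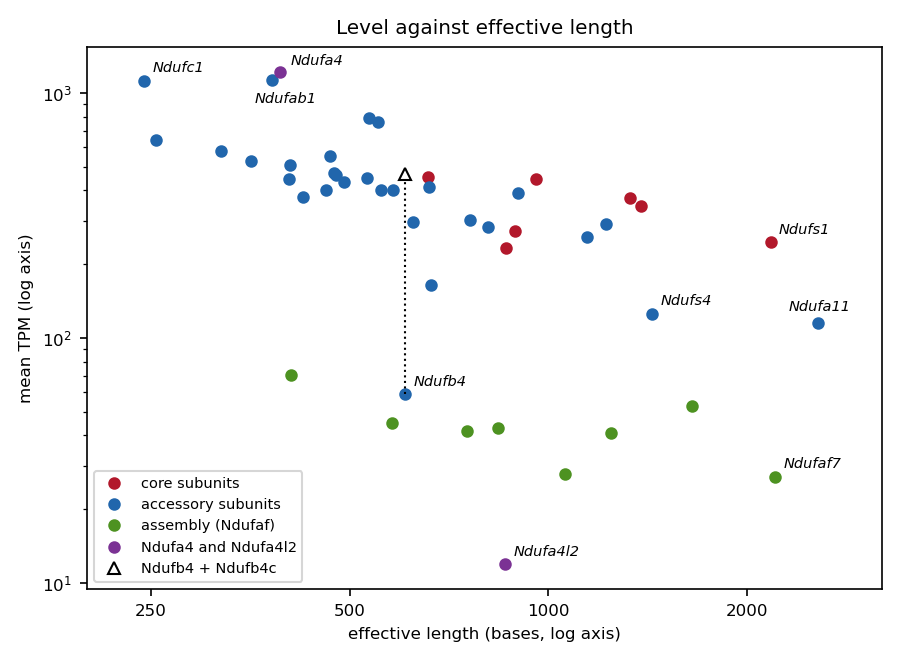
Mean TPM of 2 libraries against effective length, both on log axes, coloured by class; the triangle gives Ndufb4 summed with its copy Ndufb4c. Among subunits, TPM falls as effective length rises. The sum of 468 TPM is drawn at the effective length of Ndufb4 and lies among the other subunits, but it adds TPM made over unlike lengths.

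The low value of Ndufb4 came with a gene copy. Ndufb4c, a processed pseudogene on chromosome 15 (chr15:73809507-73809896, minus strand), is 390 bases long and is contained whole, with no difference, in the coding Ndufb4 transcript of 971 bases, where it begins at the start codon. Its first 60 bases, chr15:73809837-73809896, are printed because reads from them fit both genes equally, with the start codon in capitals.
Ndufb4c: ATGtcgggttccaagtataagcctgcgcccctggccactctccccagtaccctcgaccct
The deposited tables list Ndufb4c at 453 TPM in replicate 2 and 365 in replicate 1, against Ndufb4 at 66.5 and 51.7 TPM. Of the reads assigned to the pair, the estimate put 76.8% in replicate 2 and 77.0% in replicate 1 on the pseudogene. Neither gene's share can be settled by letters inside the copy. Summed, they had 519 TPM in replicate 2 and 417 TPM in replicate 1 (468 ± 72.1, SD, n = 2), in the range of other subunits. Reads of each were divided by its own length, and the copy is the shorter. The sum is therefore not a level of Ndufb4 itself, and the same reads over the length of Ndufb4 would give less. With the sum in place of Ndufb4, the highest subunit was 9.86-fold above the lowest, against 19.2-fold with Ndufb4 alone. Counts that are not whole, which show that reads were shared out, occurred in 12 members. Of those, 7 have 1 or more processed pseudogenes sharing runs of 50 bases (Ndufa12, Ndufab1, Ndufb11, Ndufb4, Ndufs3, Ndufs5 and Ndufs6), and among their 9 pseudogenes only Ndufb4c and Gm4459 reached 10 TPM in both libraries. Gm4459, the copy of Ndufab1, was listed at 85.1 TPM in replicate 2 and 58.7 in replicate 1, far below Ndufab1 itself. Ndufa13, Ndufb2, Ndufb5 and Ndufb6, also with counts not whole, share such runs with a gene on the opposite strand. These are Tssk6, Gm16272, Mrpl47 and Smim27, in that order. The copies were searched, and the sum taken, after the low value of Ndufb4 was seen.

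Assembly genes fell in a narrow band of 2.59-fold. Ndufaf8, a small partner of NDUFAF5, had 77.9 TPM in replicate 2 and 62.6 TPM in replicate 1. Ndufaf4 and Ndufaf3, which act together early in assembly, had 54.8 and 43.9 TPM in replicate 2 and 50.5 and 41.7 TPM in replicate 1. Ndufaf2, a paralog of the accessory subunit Ndufa12, had 46.8 TPM in replicate 2 and 42.7 TPM in replicate 1. Ndufaf6 and Ndufaf1, both needed for early assembly, had 46.1 and 43.4 TPM in replicate 2 and 37.5 and 38.1 TPM in replicate 1. Ndufaf5, which hydroxylates an arginine of NDUFS7, had 30.5 TPM in replicate 2 and 25.1 TPM in replicate 1. Ndufaf7, a methyltransferase, had 28.8 TPM in replicate 2 and 25.5 TPM in replicate 1. Bounds were apart in both libraries at 3 of the 7 steps of this order: below Ndufaf8, below Ndufaf4 and below Ndufaf1. Assembly factors under other names had a like median over a wider range: the 12 matched genes had a median of 39.5 TPM and spanned 11.2-fold, from Nubpl, an iron-sulfur delivery protein, at 7.76 TPM to Tmem126a at 86.9 TPM.

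The 2 pairs of related genes were far apart. Ndufa4 had 1322 TPM in replicate 2 and 1120 TPM in replicate 1, the highest level of all 46 genes. Its paralog Ndufa4l2, known as a hypoxia-induced gene, had 14.1 TPM in replicate 2 and 9.71 TPM in replicate 1, the lowest level and the only one under 10 TPM in a library. The log2 TPM ratio of Ndufa4 to Ndufa4l2 was 6.55 in replicate 2 and 6.85 in replicate 1 (6.70 ± 0.21, SD, n = 2), or 104-fold. Ndufa12, which takes the place of Ndufaf2 when the complex is completed, had 478 TPM in replicate 2 and 386 TPM in replicate 1. The log2 ratio of Ndufa12 to Ndufaf2 was 3.35 in replicate 2 and 3.17 in replicate 1 (3.26 ± 0.13, SD, n = 2), or 9.61-fold, and the bounds of the 2 genes were apart in both libraries for both pairs.

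Against the other complexes, nuclear complex I subunits had a lower median level than those of complexes III, IV and V. Medians over the listed nuclear genes were 421 TPM for complex II (4 genes), 811 TPM for complex III (9), 964 TPM for complex IV (13) and 1025 TPM for complex V (15), against 403 TPM for the 36 complex I subunits. The ranges overlap, since complex IV ran down to Cox8b, a muscle isoform, at 115 TPM. The 7 subunits of complex I encoded in mitochondrial DNA had a median of 937 TPM, from mt-Nd4l at 137 TPM to mt-Nd1 at 4154 TPM.

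**Figure D3:**
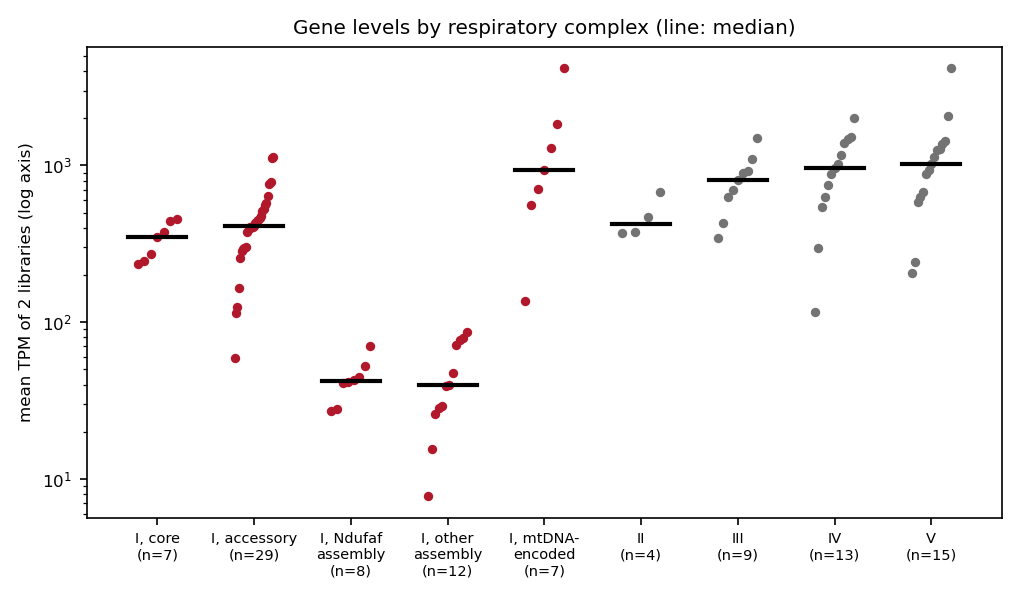
Mean TPM of 2 libraries (log axis) of each gene in complex I classes (red) and in complexes II to V (grey), with the median as a line. Both assembly groups lie below all other groups' medians, at 42.3 and 39.5 TPM.

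The 2 libraries differed little in these genes after scaling. Ratios were taken as replicate 2 over replicate 1 from expected counts scaled by TMM, with 0.5 added, and a log2 ratio of 0.32 or more in either direction was taken as the size called. Only Ndufa4l2 was called higher in replicate 2 and no member lower, while 3.75% of 12804 protein-coding genes with a mean count of at least 50 were called higher and 5.58% lower. Of the 1167 genes at 100 TPM or more in both libraries, 36 of them members, 0.514% were called higher and 1.20% lower. The fold of Ndufa4l2 was 1.31, with an exact 95% interval of 1.11 to 1.56 that covers counting error only, from 332 counts in replicate 2 and 245 in replicate 1. The next ratios upward were those of Ndufs5 (1.16-fold), Ndufa1 (1.15-fold) and Ndufb4 (1.14-fold). The only members below 1 were Ndufaf3 (0.944-fold) and Ndufaf2 (0.992-fold), whose intervals include 1. In 39 members, Ndufa4l2 among them, the interval lay wholly above 1, but it covers counting error only. A coefficient of variation of 0.0887 over all genes, from edgeR's common dispersion, corresponds to an SD of 0.18 for a log2 ratio.

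The members were nonetheless shifted together. Their median log2 ratio was 0.12, against -0.0055 over the 12804 genes, and 44 of 46 were above 0, against 48.4% of those genes. Scaling by spike-ins moved the median of all these genes to 1.28 and that of the members to 1.41, with all 46 called higher. With the ratio of deposited TPM, 5 members were called higher. Protein-coding genes at 100 TPM or more in both libraries, a subset looked at after the shift was seen, also had a positive median, 0.050 over 1167 genes, with 71.8% above 0. Nuclear genes of complexes II to V were shifted alike, with a median of 0.10 and 38 of 41 above 0. Cardiomyocyte markers had a median log2 ratio of 0.12 (5 of 6 above 0). Smooth muscle markers had a median of 0.11 (3 of 3 above 0). Medians below 0 were those of endothelial markers, at -0.10 (0 of 5 above 0), epicardial, at -0.24 (0 of 4), fibroblast and cushion, at -0.26 (1 of 4), macrophage, at -0.36 (1 of 4), lung and foregut, at -0.22 (1 of 4), and erythroid, at -0.73 (1 of 10). Mitochondrially encoded complex I genes had a median of -0.064 (1 of 7 above 0), among them mt-Nd3 at -0.83. The counts of mt-Nd3 were not whole, and neither were those of mt-Nd2 (-0.021), mt-Nd4 (-0.044) and mt-Nd4l (0.031). Liver markers stood at 2.45 (8 of 8 above 0). The part of these in the shift of the Nduf genes was not tested.

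**Figure D4:**
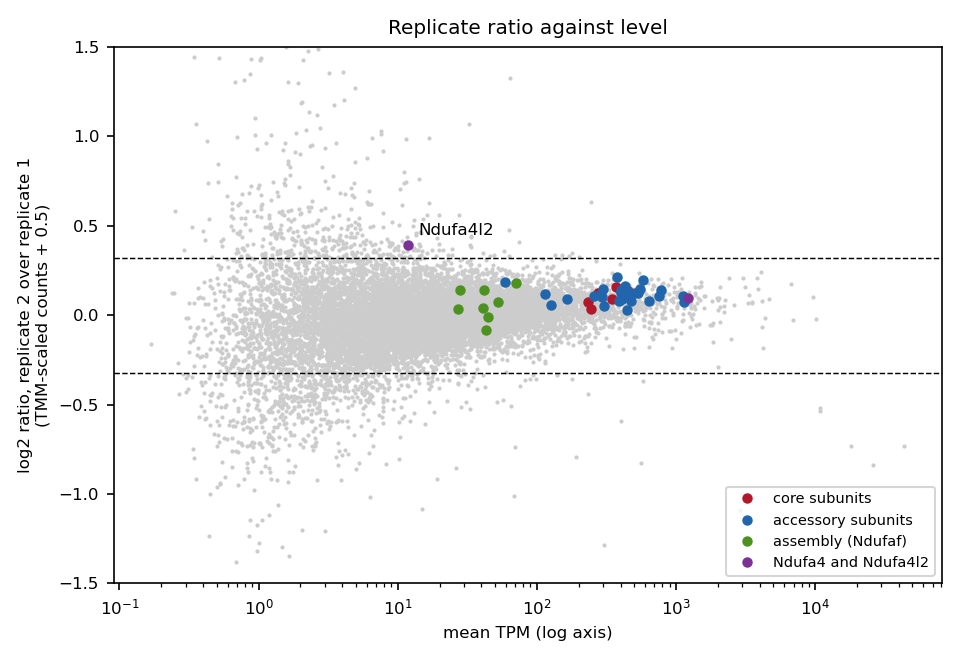
Log2 ratio of scaled counts, replicate 2 over replicate 1, against mean TPM (log axis) for 12804 protein-coding genes (grey) and the Nduf genes (coloured); dashed lines mark a log2 ratio of 0.32 in either direction, and 67 grey genes lie beyond the axis limits of 1.5. All Nduf genes but Ndufa4l2 lie inside the lines, and 44 of 46 lie above 0.

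At the level of transcripts, 16 members had 1 annotated transcript and 30 had several. The leading transcript was the same in both libraries in all 30, held over 50% of the gene's TPM in both in 23 and over 80% in both in 16. In 5 genes (Ndufa5, Ndufa10, Ndufaf4, Ndufaf8 and Ndufb4) the leading transcript is not annotated as protein coding. In Ndufa5 it is a processed transcript of 453 bases, with 90% of the gene's TPM in replicate 2 and 89.5% in replicate 1. In Ndufa10 such classes together took 84.4% in replicate 2 and 80.7% in replicate 1, with a retained-intron form leading at 32.1% in replicate 2 and 30.6% in replicate 1. By reads the order in Ndufa10 differs: the coding transcript of 2020 bases held 3542 counts in replicate 2 and 3812 in replicate 1, and the retained-intron form of 715 bases held 2338 in replicate 2 and 1941 in replicate 1. It differs likewise in Ndufb4 and Ndufaf8. In Ndufb4 the coding transcript held 732 counts in replicate 2 and 648 in replicate 1, against 359 and 282 for the leading form. In Ndufaf8 a coding transcript held 381 and 327, against 311 and 297.

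No transcript held over 50% in both libraries in 7 genes: Ndufa10, Ndufab1, Ndufaf3, Ndufaf8, Ndufb5, Ndufc1 and Ndufv1. Ndufv1 had its leading coding transcript at 46.2% in replicate 2 and 52.2% in replicate 1, and a second coding one at 35.0% in replicate 2 and 34.8% in replicate 1. Ndufb5 was split over 3 coding transcripts at 45.3%, 30.1% and 23.6% in replicate 2 and 44.6%, 31.0% and 23.6% in replicate 1. Ndufab1 gave 46.3% in replicate 2 and 46.7% in replicate 1 to a coding transcript and 51.0% and 50.4% to classes that are not coding. Ndufc1 likewise gave 49.1% in replicate 2 and 52.0% in replicate 1 to its leading coding transcript. Ndufaf3 and Ndufaf8 led with 41.2% and 48.2% in replicate 2 and 42.4% and 53.6% in replicate 1. A gene's TPM sums all of its transcripts, of whatever class. Of the 30 genes, 20 had under 20% in such classes in both libraries.

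**Figure D5:**
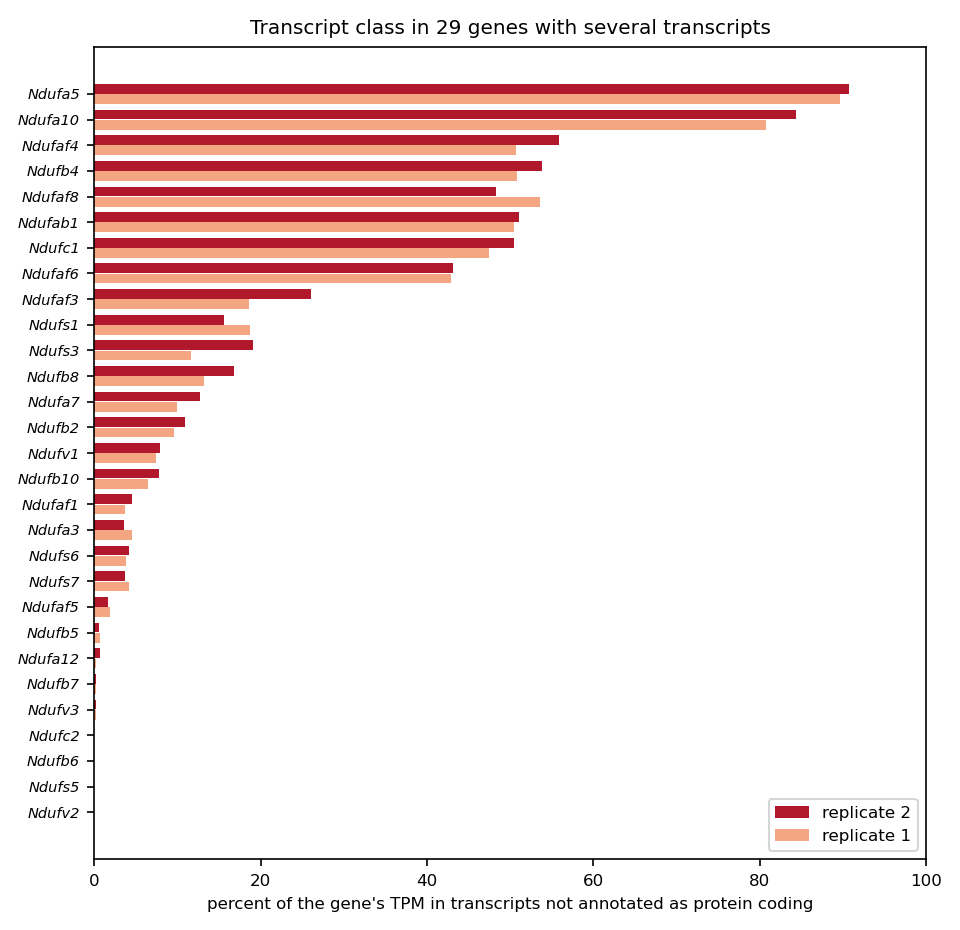
Percent of each gene's TPM assigned to transcripts not annotated as protein coding, in replicate 2 (dark) and replicate 1 (light), for 29 of the 30 members with several transcripts. Ndufa5 and Ndufa10 stand above 80% in both libraries, and 13 genes lie under 5%.

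Many members share their start region with another gene. A gene on the opposite strand starts within 1000 bases of the start of 23 of 46 members (50%), against 18.5% of 21951 annotated protein-coding genes and 26.4% of the 12309 at 1 TPM or more in both libraries. In 14 the starts are apart, so that the genes point away from each other, and in 9 the first bases overlap. Counting starts that are apart only, the shares are 30.4% of members, 10.8% of protein-coding genes and 15.6% of those at 1 TPM or more. Ndufa7 starts 10 bases from Rps28, a ribosomal protein gene that had 531 TPM in replicate 2 and 444 in replicate 1. Ndufs1 and Eef1b2, a translation elongation factor gene, have overlapping starts 8 bases apart; Eef1b2 had 310 TPM in replicate 2 and 262 in replicate 1. Ndufs6 and Mrpl36, a mitochondrial ribosomal protein gene, have overlapping starts 29 bases apart; Mrpl36 had 139 TPM in replicate 2 and 116 in replicate 1. These 3 were the only neighbours at 100 TPM or more in both libraries. The median neighbour had 10.5 TPM, and 21 of 23 lay below their Nduf gene. The sources used here do not state whether counting used strand, and where it did not, reads from overlapping first exons cannot be told apart. Ndufa13 and Tssk6 have overlapping starts on opposite strands. Their counts were 8783.89 and 62.11 in replicate 2, and 7891.84 and 53.16 in replicate 1. In each library these add up to a whole number, so reads of this pair were shared out across strands.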

How the data were processed

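RNA-seq was measured in 2 libraries of 1 group; the members and lists were chosen with earlier results of these data known. Per the file headers, the deposited gene and transcript tables give expected counts and TPM made by the authors, with credibility bounds of TPM used as a signal-like interval whose level is not stated, and the percent of each gene's TPM per transcript. Per the labels the assembly is mm10; per the deposited file descriptions the annotation is M4. For the aligner and quantifier, names and versions were not given in the sources used. TPM sums over all features, spike-ins included.

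Gene identifiers, versions removed, were looked up in GENCODE M21 (42462 of 43346 matched), which also gave transcript classes. Spike-ins stayed out of scaling. Scaling factors were computed from rounded expected counts by TMM in edgeR 4.0.16, and as an alternative as the size factors of DESeq2 1.42.0 (R 4.3.3). For the ratios, the unrounded expected counts were divided by these factors. A pseudocount of 0.5 and a mean count of at least 50 were used, and 1 list entry, Coa1, was unmatched. The ratio step was tested on simulated data whose changes were larger than any member's ratio. It does not show how well ratios of the members' size are found. Copies are transcripts of other genes sharing runs of 50 bases with a member, reported from 20% of the copy or 10% of the member. Named genes were the core subunits (1 is not reported here by name), the 4 highest and 4 lowest accessory and assembly genes, members under 10 TPM, the largest replicate ratios, the pairs, and genes without a transcript over 50%. At 1 TPM and 1 kb a gene has 27.4 reads in replicate 2 and 29.3 in replicate 1. Tables were handled in Python with numpy, pandas and scipy.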

Additional observations from a re-analysis of the deposited data

How the results depend on the processing

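Across 14 results under the alternatives that keep both libraries, 32 values stayed the same and 13 did not. The same meant within the replicate spread, for counts within 1.5 times, and for the median ratio within the SD over members. The log2 ratios of the 2 pairs were judged by direction alone, which neither changed. Leaving out spike-ins and globins from the TPM sum set the class medians to 430 TPM for core, 511 TPM for accessory and 52.5 TPM for assembly genes. With members of whole counts only, the subunit to assembly ratio was 10.0, the highest to lowest subunit ratio 9.77 against 19.2, and the SD of log2 TPM over subunits 0.78 against 0.85. Summing Ndufb4 with Ndufb4c, added after seeing the data, gave 9.86 and 0.72. Spike-in scaling set the median replicate log2 ratio of members to 1.41, with 46 members called higher, but set that of all protein-coding genes to 1.28. The ratio of deposited TPM gave a median of 0.26 with 5 members called higher. Counting starts that are apart only left 14 members with a divergent neighbour, also chosen after seeing the data. No paired analysis was possible because there is 1 group. Leaving out replicate 1 or replicate 2 gave core medians of 378 and 316 TPM; with 2 libraries such values always lie within their SD, so they say nothing of stability. Depth limits Ndufa4l2 most.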
